A study of Mus musculus with 4 samples.

Results

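Wild-type mouse bone marrow cells grown with Flt3 ligand were compared between day 5 and day 3 of culture, across all genes of the deposited expression table. Of 26026 listed genes, 11786 had a mean of at least 1 RPKM (reads scaled by transcript length and library total) over the 4 libraries of the series and were compared, and 14240 fell below that level. Each side was 1 library of polyadenylated RNA from wild-type C57 cells, labelled BMDC (bone marrow-derived dendritic cells). Both cultures were in RPMI medium with 10% fetal bovine serum, 2-mercaptoethanol, antibiotics and 100 ng/mL Flt3 ligand, and the medium was renewed at day 3. The other 2 libraries carry the label Nfkb1-/- and come from cells of the same background, days and medium; they enter the level filter, and otherwise are used below only as values set beside the wild type. The labels do not say how many animals gave the marrow, or whether the day 3 and day 5 cells came from the same culture. With 1 library per day there is no replicate check, so every difference below is a value with no test.

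Flt3 ligand binds the receptor tyrosine kinase Flt3 on progenitor cells and drives their development into plasmacytoid and conventional dendritic cells. Type 1 conventional dendritic cells depend on the transcription factors Irf8, Batf3 and Id2 and take up dead cells for presentation on class I molecules, while type 2 cells present mainly to helper T cells. Whole marrow also brings granulocytes, red cell precursors, megakaryocytes and lymphocytes into the dish, and these are not supported by Flt3 ligand in the same way. In a bulk library, fewer cells of a type and less RNA per cell cannot be told apart.

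Differences are given as day 5 minus day 3 of log2(RPKM + 1), which understates the change of genes near or below 1 RPKM. A gene is called higher or lower where this difference is at least 1 in size. By that rule 212 genes were higher at day 5 (1.8% of those compared) and 242 were lower (2.05%). The median over all compared genes was 0.16, with 8163 above 0, and lists of genes are read against that median. Within a list, genes are named for the size of their difference, or otherwise for their level or role. When the libraries were rescaled by their median ratio, which sets that median to 0, 134 genes were higher and 339 lower, so the share of higher genes among those called went from 46.7% to 28.3%. The recovered library totals were 15255070 reads at day 3 and 16116361 at day 5, of which 69.7% and 72.8% fell in listed genes. Ratios of RPKM are given with exact 95% intervals of the recovered reads, which cover counting error only.

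**Figure D1:**
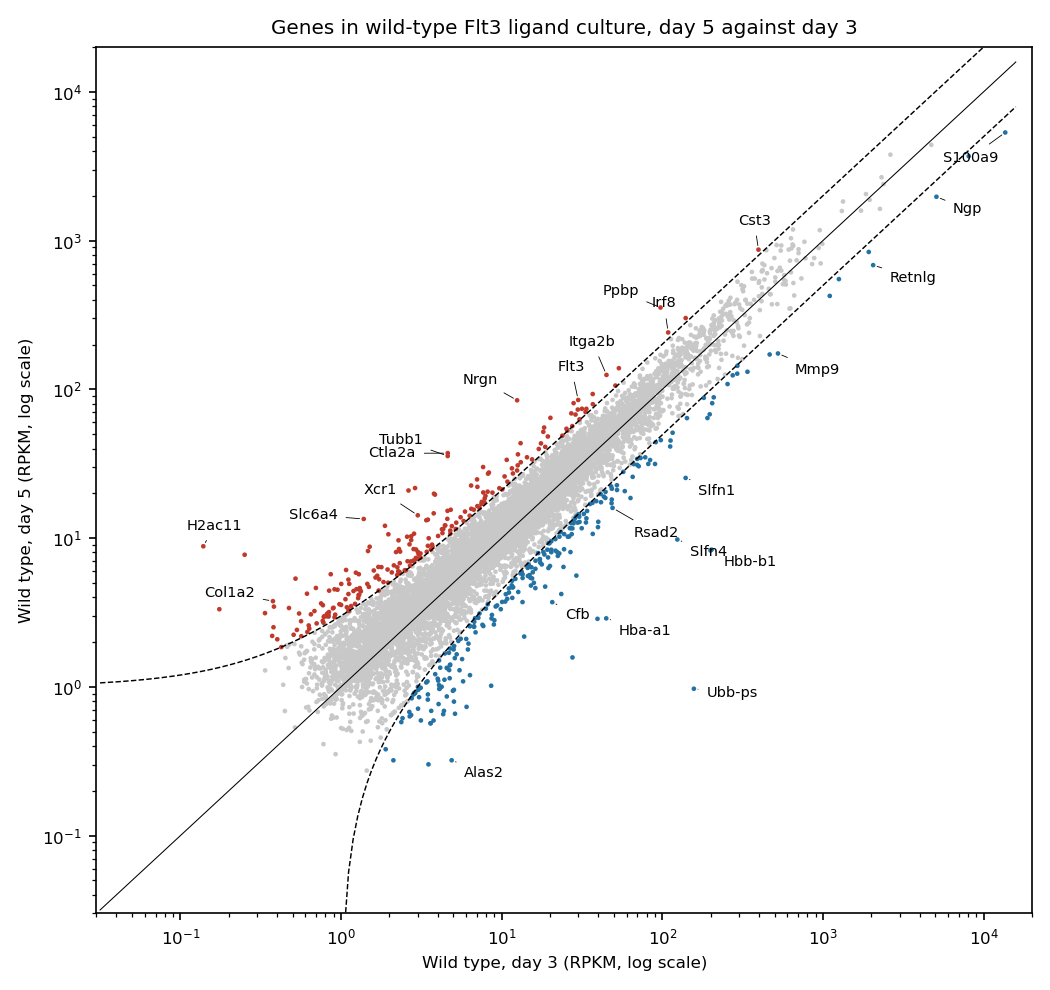
Level of each compared gene in the wild-type library of day 3 (horizontal axis, RPKM, log scale) and of day 5 (vertical axis, RPKM, log scale), 1 point per gene; red and blue mark the 212 higher and 242 lower genes, the dashed lines the size rule and the solid line equality. S100a9 and Ngp, among the most abundant transcripts, lie below the lower dashed line, and Nrgn, Tubb1 and Ppbp above the upper one.

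The receptor of the added growth factor was among the genes that were higher. Flt3 stood at 29.9 RPKM at day 3 and 84.8 at day 5, a difference of 1.47 and a ratio of 2.83 (2.68 to 2.99). Csf3r, the receptor for granulocyte colony-stimulating factor, went the other way, from 69.7 to 34.0 RPKM (difference -1.01). These were the only genes past the size rule among 33 measured receptors for growth factors and cytokines, whose median was 0.13. Csf1r (269 and 309 RPKM), Kit (9.72 and 10.9 RPKM) and Il7r (21.7 and 21.8 RPKM), named for their roles in macrophage, progenitor and lymphoid growth, differed by 0.20, 0.15 and 0.01.

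Markers of type 1 conventional dendritic cells gave the list with the highest median. Of 19 measured members 10 were higher and 0 lower, with a median of 1.05, and 2 further members fell below the level filter. Xcr1, the receptor for the chemokine Xcl1 and a defining marker of these cells, went from 3.00 to 14.2 RPKM (difference 1.93, ratio 4.74, 4.07 to 5.53). Clec9a, the receptor for exposed actin of dead cells, went from 7.02 to 24.8 RPKM (1.68). Irf8, the transcription factor that sets their identity, went from 109 to 241 RPKM (1.14). All of these were lower at day 3. Differences of 1.89 for Tlr11, 1.70 for Itgae, 1.65 for Cadm1, 1.49 for Naaa and 1.23 for Tlr3 belonged to the same list. Batf3 (3.87 and 6.88 RPKM, difference 0.70) and Id2 (113 and 217 RPKM, difference 0.94), named for their roles, were under the size rule. Cd24a and Ly75 had lower values at day 5, with differences of -0.81 and -0.86. The median was 0.64 with a pseudocount of 5 RPKM and 0.69 over members with a mean of at least 5 RPKM.

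Genes shared by conventional dendritic cells had a median of 0.54, with 4 of 21 higher and 0 lower. Itgax, which encodes the integrin CD11c, went from 18.4 to 55.3 RPKM (1.54), and the others past the rule were Flt3, Havcr2 (1.27) and Kmo (1.20). Zbtb46, a transcription factor restricted largely to this lineage among leukocytes, stood at 1.78 and 3.69 RPKM (0.75). For type 2 cells 2 of 17 were higher and 1 lower, with a median of 0.63. Cd7 went from 18.2 to 51.8 RPKM (1.46) and the lectin gene Cd209a from 11.8 to 27.2 RPKM (1.14). Il1r2, a decoy receptor for interleukin 1 that is also abundant in neutrophils, went from 11.6 to 3.96 RPKM (-1.35). Sirpa (173 and 181 RPKM) and Irf4 (9.82 and 9.57 RPKM), named for their roles in these cells, differed by 0.06 and -0.03.

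The median of the plasmacytoid list was close to that of all genes, and 17 of its 31 measured members lay above the latter. Of 31 measured, 1 was higher and 0 lower, with a median of 0.17. The gene past the rule was Runx2 (14.4 to 34.9 RPKM, difference 1.23), a transcription factor needed for these cells to leave the marrow. Siglech, a defining surface marker, stood at 23.1 and 43.5 RPKM (0.88) and Ccr9 at 13.2 and 26.8 RPKM (0.97). Tcf4, also a marker of these cells, differed by 0.55. Irf7, the factor behind large-scale type I interferon production, stood at 135 and 68.0 RPKM (-0.97), and Ly6c2 at 405 and 228 RPKM (-0.83). Irf7 is also on the list of interferon-stimulated genes, and Ly6c2 on that of monocytes and macrophages. The list therefore held values on both sides, 22 above 0 and 9 below.

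Among 39 measured transcription factors of the dendritic lineage 4 were higher and 1 lower, with a median of 0.10. Mycl, the Myc family member used by dendritic cells, gave the largest difference, from 3.77 to 14.7 RPKM (1.71), followed by Zfp366 (1.28), Irf8 (1.14) and Id3 (1.08). Ikzf3, a lymphoid factor of the Ikaros family, went from 25.8 to 10.2 RPKM (-1.26). Spi1, which encodes PU.1 and is named for its level and role, stood at 172 and 170 RPKM (-0.02).

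Class II presentation genes had a median of 0.28 and 0 of 18 past the rule in either direction. Over all genes 11332 of 11786 were likewise inside it. The chains H2-Aa (651 and 1187 RPKM), H2-Ab1 (514 and 933 RPKM) and H2-Eb1 (361 and 616 RPKM) differed by 0.87, 0.86 and 0.77, and the peptide exchange genes H2-DMb1 and H2-DMa by 0.86 and 0.84. Cd74, the invariant chain, stood at 1333 and 1830 RPKM (0.46). Ctss, the protease that trims it, stood at 881 and 763 RPKM (-0.21). For class I presentation 0 of 27 were higher and 4 lower, all 4 of them nonclassical genes: H2-Q10 (-1.78), H2-T24 (-1.31), H2-Q7 (-1.23) and H2-Q6 (-1.14). Reads of the close copies H2-Q6 and H2-Q7 may be split between them. The classical genes H2-K1 and H2-D1, named for their level, differed by -0.40 and -0.34.

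Of 26 genes for Toll-like receptors and their adaptors 3 were higher and 1 lower, beside 1.8% and 2.05% of all genes. Their median was 0.02. Tlr11 and Tlr12, which recognise profilin, and Tlr3, which recognises double-stranded RNA, were the 3 of these 26 genes that were higher, and Tlr5, the flagellin receptor, was the 1 that was lower (5.02 to 1.78 RPKM, -1.11). Tlr7 and Tlr9, named for their roles in plasmacytoid cells, differed by 0.12 and 0.03. Among 27 C-type lectin and Siglec genes 4 were higher, Clec9a, Clec1b (1.29), Cd209a and Clec4b1 (1.08), and Siglece was lower (31.5 to 11.6 RPKM, -1.36). Of 16 integrin genes 6 were higher and 0 lower, with a median of 0.86. They were Itgae, Itgax, the platelet pair Itga2b and Itgb3, Itga6 (1.27) and Itga2 (1.21). Itgam, the CD11b chain of myeloid cells, stood at 144 and 91.7 RPKM (-0.64). Among 22 genes for receptors of chemokines and other chemoattractants Xcr1 was higher and 4 were lower, Cxcr2 (90.0 to 31.5 RPKM, -1.49), Ccr3 (-1.39), Fpr1 (-1.20) and Fpr2 (-1.01), which are receptors of granulocytes. Ccr2, the receptor that monocytes and dendritic precursors use to leave the marrow, stood at 116 and 196 RPKM (0.75).

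**Figure D2:**
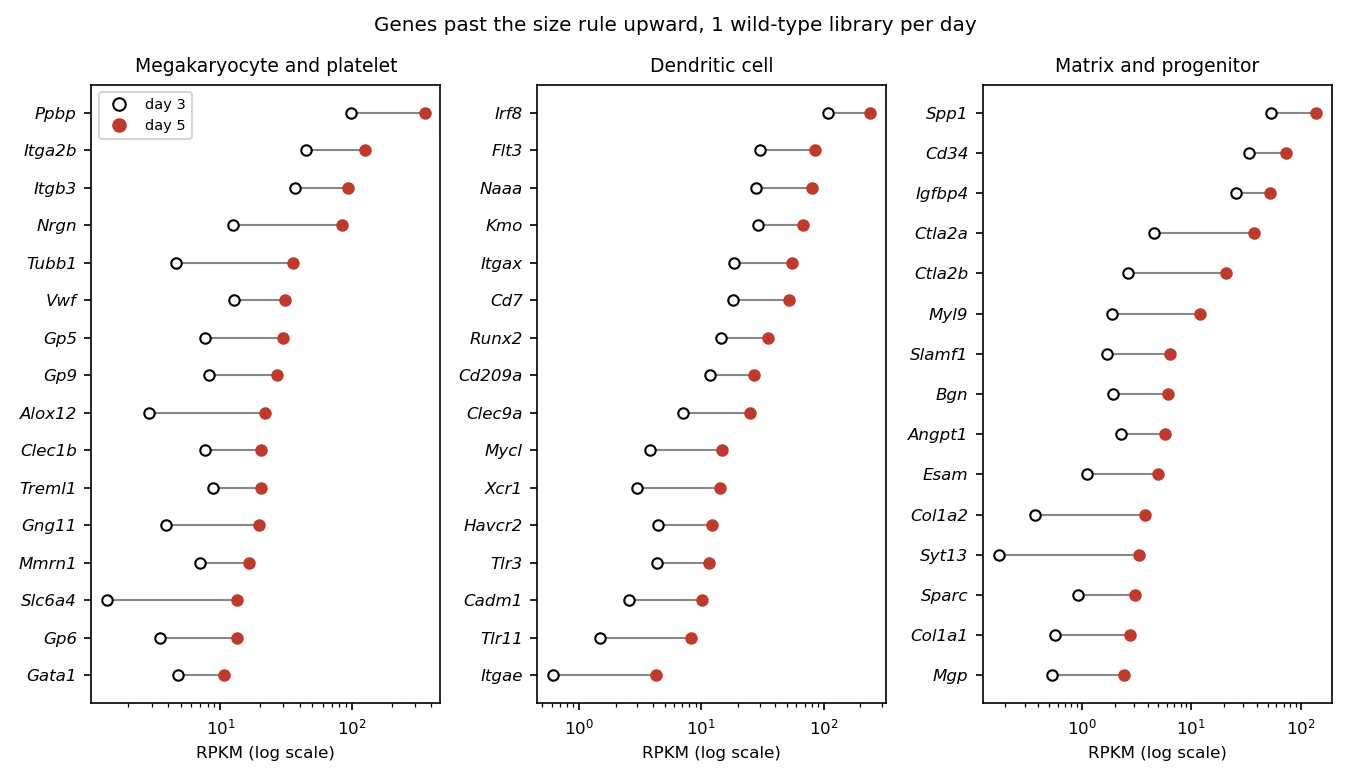
Level of genes past the size rule upward in 3 panels (horizontal axis, RPKM, log scale, 1 row per gene); open circles are the wild-type library of day 3 and filled circles that of day 5. Ppbp goes from 97.4 to 355 RPKM, Irf8 from 109 to 241 and Ctla2a from 4.62 to 37.2.

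Megakaryocyte and platelet genes made up the largest group of rises among the lists, 16 of 46 measured, with 0 lower and a median of 0.81. Their summed level went from 1545 to 2457 RPKM. Tubb1, the tubulin of the platelet marginal band, went from 4.61 to 35.6 RPKM (2.71, ratio 7.72, 6.48 to 9.26). Nrgn went from 12.5 to 84.4 RPKM (2.66), the serotonin transporter gene Slc6a4 from 1.38 to 13.4 (2.60), and the platelet lipoxygenase gene Alox12 from 2.89 to 21.7 (2.54). Ppbp, a chemokine stored in alpha granules, was the most abundant gene of the list at day 5, at 97.4 RPKM at day 3 and 355 at day 5 (1.85). Among surface glycoprotein genes of platelets, Gp5 (1.84), Gp6 (1.68), Gp9 (1.61), Itga2b (1.46) and Itgb3 (1.31) were higher, while Gp1ba and Gp1bb, which encode chains of the von Willebrand factor receptor, differed by 0.80 and 0.03. Pf4, the other main alpha-granule chemokine, stood at 151 and 232 RPKM (0.62), and Gata1, the factor shared by this lineage and the red cell lineage, at 4.79 and 10.7 RPKM (1.01). Fli1 stood at 42.9 and 40.8 RPKM (-0.07). Markers that define this lineage were thus present at both days in libraries labelled BMDC.

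Early progenitor genes had 8 of 34 higher and 0 lower, with a median of 0.20. Ctla2a and Ctla2b, which encode cathepsin inhibitors and are near-identical copies, went from 4.62 to 37.2 RPKM (2.77) and from 2.63 to 20.9 RPKM (2.59). Esam (1.48), Flt3, Slamf1 (1.45), Cd34 (33.7 to 73.9 RPKM, 1.11), Angpt1 (1.04) and Gata1 were the others. Esam, Slamf1 and Angpt1 are also expressed by megakaryocytes. Meis1, Hoxb4 and Ly6a, named for their roles in stem cells, differed by 0.07, 0.06 and 0.02.

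Matrix and vessel genes had 11 of 27 measured higher and 1 lower, with a median of 0.76, and 29 further members fell below the level filter. Most were low: Col1a2 stood at 0.377 and 3.77 RPKM (1.79) on 30 and 317 reads, and Col1a1 at 0.564 and 2.76 RPKM (1.27). Spp1, which macrophages also make, went from 53.6 to 139 RPKM (1.35). Myl9 (1.88 to 12.1 RPKM, 2.19) and Vwf (12.6 to 30.8 RPKM, 1.23) are expressed in megakaryocytes as well. Thy1 was lower (-1.27).

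All neutrophil genes past the rule on 3 lists, from primary granules to mature cells, were lower. Of 27 measured genes of secondary and gelatinase granules 16 were lower and 0 higher, all 27 had a difference below 0, and the median was -1.14. Their summed level went from 18526 to 10517 RPKM. Ngp, a cystatin-related granule protein, went from 5084 to 1969 RPKM (-1.37), and Lcn2, which binds iron-carrying siderophores, from 1927 to 838 (-1.20). Mmp25, a membrane-bound protease, gave the largest difference (24.2 to 6.40 RPKM, -1.77), ahead of the gelatinase gene Mmp9 (525 to 174 RPKM, -1.59) and Cd177 (191 to 64.1 RPKM, -1.56). Lyz2, which monocytes share, stood at 4721 and 4400 RPKM (-0.10).

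Genes of mature neutrophils had 23 of 41 lower and 0 higher, with a median of -1.04. Retnlg went from 2052 to 683 RPKM (-1.58, ratio 0.333, 0.324 to 0.342), and Ly6g, the defining surface marker, from 39.7 to 11.8 RPKM (-1.67). Asprv1 (-2.19), Stfa2 (-2.02), Stfa3 (-1.79), Stfa2l1 (-1.72) and Mmp9 were the others with the largest drops. Of 18 genes of primary granules, which form at the promyelocyte stage, 5 were lower and 0 higher, with a median of -0.73. Hdc (-1.44), Hp (-1.19), Elane (116 to 51.1 RPKM, -1.17), Cebpe (-1.07) and Mpo (293 to 144 RPKM, -1.02) were past the rule. Prtn3 stood at 121 and 105 RPKM (-0.20). Ly6g and Mpo, markers of late and early stages, thus both passed the rule.

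S100a9 and S100a8, which together form calprotectin, were the most abundant transcripts at day 3, and S100a9 still was at day 5. S100a9 went from 13630 to 5325 RPKM (-1.36) and S100a8 from 8077 to 3687 RPKM (-1.13), and together they fell from 6.89% to 2.80% of summed RPKM. S100a4 (105 and 172 RPKM) and S100a10 (96.2 and 155 RPKM) differed by 0.70 and 0.68, so the 9 measured S100 genes held values on both sides of 0. Of 8 cystatin-family inhibitors 5 were lower, all from the stefin A cluster of near-identical genes, and the list median was -1.65. Cst3, which encodes cystatin C and is abundant in dendritic cells, went from 397 to 869 RPKM (1.13). Monocyte and macrophage genes had a summed level of 13637 RPKM at day 3 and 13636 at day 5. Of this sum, Lyz2 alone made up 4721 and 4400 RPKM. Of the 50 measured, 1 was higher (Spp1) and 0 lower, the median was -0.03, and 15 lay above the median of all genes.

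**Figure D3:**
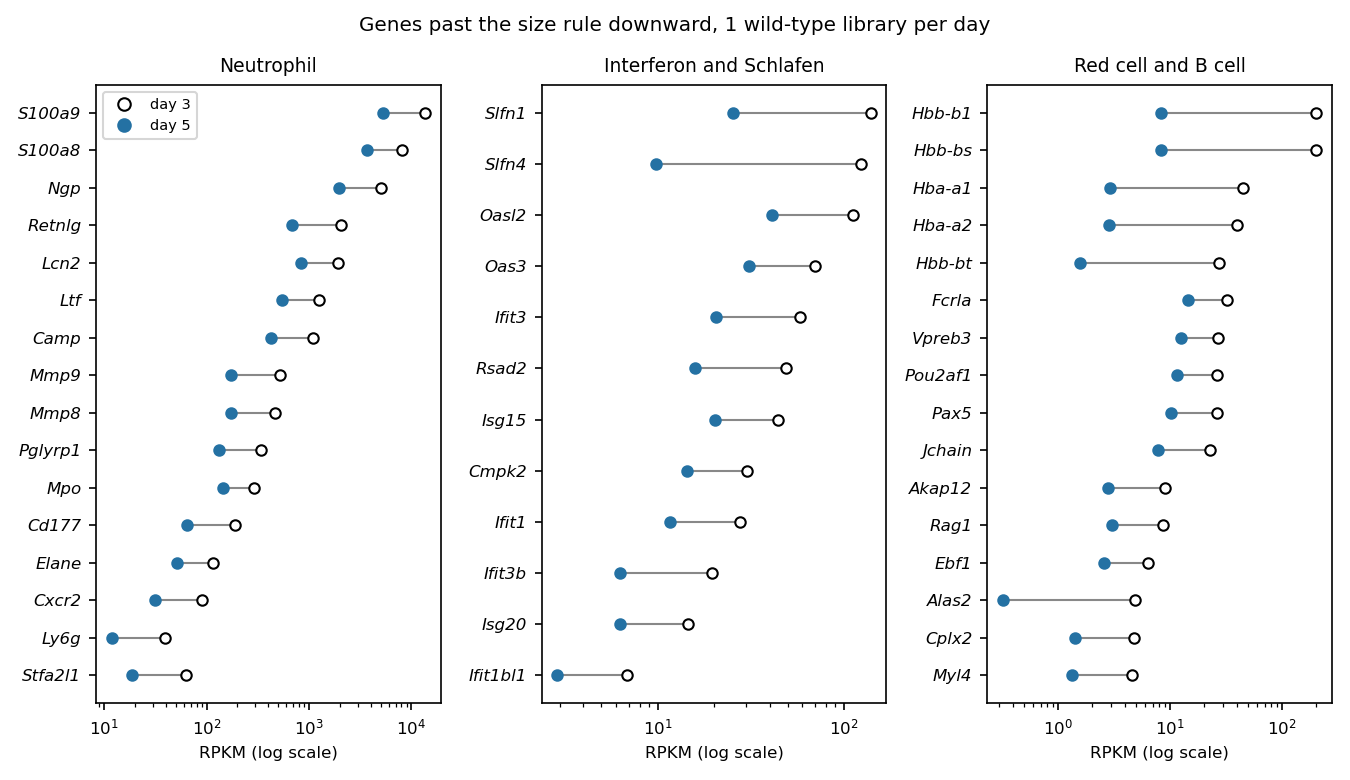
Level of genes past the size rule downward in 3 panels (horizontal axis, RPKM, log scale, 1 row per gene); open circles are the wild-type library of day 3 and filled circles that of day 5. S100a9 goes from 13630 to 5325 RPKM, Slfn4 from 124 to 9.78 and Hbb-b1 from 203 to 8.36.

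Globin genes of red cells were among the largest drops. Hbb-b1 went from 203 to 8.36 RPKM (-4.44) on 1950 and 85 reads, Hbb-bs, a near-identical copy, from 199 to 8.25 RPKM, and Hba-a1 from 44.7 to 2.89 RPKM (-3.56). Hbb-bs had 1944 and 85 reads, and Hba-a1 and Hba-a2 had 763 and 678 at day 3 and 52 each at day 5. Reads of each pair thus appear to be counted largely under both symbols. Alas2, the erythroid enzyme that opens heme synthesis, went from 4.88 to 0.321 RPKM (-2.15). The 6 erythroid genes past the rule downward were Alas2 and 5 globin genes, and Gata1 was the 1 past it upward. The median of the 24 measured was 0.11, and 17 members were below the level filter. The summed level went from 666 to 201 RPKM, in which reads counted under both symbols of a pair would enter more than once. For the same reason the 5 globin genes are not 5 separate measurements.

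Genes of other granulocytes and mast cells did not move together. Epx (15.2 to 4.80 RPKM, -1.48), Hdc, Ccr3, Alox5 (-1.27) and Alox15 (-1.07) were lower, Itga2 was higher, and the median of 28 measured was -0.06. The basophil protease genes Prss34 (72.5 and 124 RPKM) and Mcpt8 (44.9 and 61.3 RPKM) differed by 0.76 and 0.44, and Prg2, the eosinophil major basic protein, by -0.25 (404 and 341 RPKM).

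All B lineage genes past the rule were lower, at both stages examined. Of 21 precursor genes 9 were lower and 0 higher (median -0.84), among them Akap12 (-1.40), Pax5, the B cell identity factor (26.3 to 10.2 RPKM, -1.28), Rag1 (-1.26) and Ebf1 (-1.05). Of 27 genes of mature B and plasma cells 4 were lower and 0 higher (median -0.49), led by Jchain (22.8 to 7.88 RPKM, -1.42). Among 27 T, NK and innate lymphoid genes 7 were lower and 1 higher (median -0.61), and 19 more fell below the level filter. Thy1 (-1.27), Cd2 (-1.15) and Cd3e (3.06 to 0.852 RPKM, -1.13, on 68 and 20 reads) were lower, and Klrd1 was higher (17.0 to 39.7 RPKM, 1.18).

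Interferon-stimulated genes lay mostly below 0: 10 of 59 passed the rule downward and 0 upward, 54 had a difference below 0, and the median was -0.52. Type I interferon acts on a short promoter element, the interferon-stimulated response element. Its letters, GAAA, any 2 bases and again GAAA, were searched on both strands in RefSeq promoter windows of GRCm38.p6, 250 bases before to 50 after the annotated start. They occurred in 4.04% of the 9051 compared genes with a window, in 25 of 44 interferon-stimulated genes with one (56.8%), in 7 of the 10 past the rule and in 18 of the 34 under it (52.9%). Over all 156 genes lower by the rule with a window, the letters occurred in 19 (12.2%), and the 7 just counted are among these 19. Windows of 120 bases are shown for 6 interferon-stimulated genes, those with the largest drops among the 7, as examples of the element. Capitals mark each match on either strand, and the sequences read 5′ to 3′ along the gene.
Rsad2 (chr12:26456508-26456627, minus strand): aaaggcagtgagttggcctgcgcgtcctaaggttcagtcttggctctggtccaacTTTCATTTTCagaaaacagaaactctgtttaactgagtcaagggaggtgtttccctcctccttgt
Ifit3b (chr19:34607714-34607833, plus strand): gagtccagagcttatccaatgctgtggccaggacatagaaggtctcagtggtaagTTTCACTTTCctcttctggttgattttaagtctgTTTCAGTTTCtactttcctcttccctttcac
Ifit3 (chr19:34583318-34583437, plus strand): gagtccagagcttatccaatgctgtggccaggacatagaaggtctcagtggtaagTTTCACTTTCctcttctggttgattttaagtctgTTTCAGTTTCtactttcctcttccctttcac
Ifit1 (chr19:34640730-34640849, plus strand): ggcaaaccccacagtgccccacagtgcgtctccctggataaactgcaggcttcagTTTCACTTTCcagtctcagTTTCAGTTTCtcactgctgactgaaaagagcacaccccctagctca
Oas3 (chr5:120777670-120777789, minus strand): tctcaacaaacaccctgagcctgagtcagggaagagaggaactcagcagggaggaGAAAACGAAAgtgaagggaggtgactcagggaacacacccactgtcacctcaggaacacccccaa
Isg15 (chr4:156200832-156200951, minus strand): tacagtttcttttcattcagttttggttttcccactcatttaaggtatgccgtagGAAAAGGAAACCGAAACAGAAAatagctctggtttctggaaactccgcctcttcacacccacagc
The windows of Ifit3 and Ifit3b are the same letter for letter, and reads of these neighbouring copies may likewise be split between them. A match is a description of letters and not evidence of binding.

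Rsad2, which encodes the antiviral enzyme viperin, went from 49.0 to 16.0 RPKM (-1.56), the largest drop on the list. Ifit3 went from 58.4 to 20.7 RPKM (-1.45), Ifit1 from 27.6 to 11.6 (-1.18), Oas3, an activator of RNase L, from 69.7 to 31.0 (-1.14), and the ubiquitin-like modifier Isg15 from 44.3 to 20.4 (-1.08). All 5 were higher at day 3. Stat2 and Irf9, which carry the interferon signal and are named for their roles, differed by -0.22 and -0.26, and Mx1 by -0.35. Bst2 gave the highest difference (147 and 206 RPKM, 0.49). In the Schlafen family, also induced by interferon, 2 of 8 were lower, Slfn4 (124 to 9.78 RPKM, -3.53, ratio 0.0789, 0.0726 to 0.0856) and Slfn1 (140 to 25.4 RPKM, -2.41), and all 8 had a difference below 0. Slfn2, the most abundant of the family, stood at 273 and 168 RPKM (-0.70).

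The element was kept after a wider search whose results had been seen, and it is to be read against that search. In all, 17 letter strings were tried in 54 groups of genes, which makes 918 pairs. The share of promoters exceeded 2.2 times that of all genes, and 12%, in 75 pairs spread over 13 of the strings. Shares well above that of all genes also occurred where no gene passed the rule, as for TTTGAA in 31 of 43 mitosis promoters against 14.8% of all. A different string occurred in 7 of 38 DNA replication promoters (18.4%) against 1.15% of all. A further string occurred in 2 of 14 class II presentation promoters (14.3%) against 0.928% of all. Shares far from that of all genes were thus not limited to interferon-stimulated genes. For the strings given next, the megakaryocyte and platelet genes and the granule genes had shares less far from that of all genes. GATAA occurred in 13 of 36 megakaryocyte and platelet promoters against 19.1% of all, and the longer AGATAA, tried before it, in 6 of 36 against 7.79%. TTGCNNAA, for the C/EBP family, occurred in 6 of 23 promoters of gelatinase and secondary granule genes against 10.0% of all, and in 7 of 26 promoters of lysosomal genes, none of which passed the rule.

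**Figure D4:**
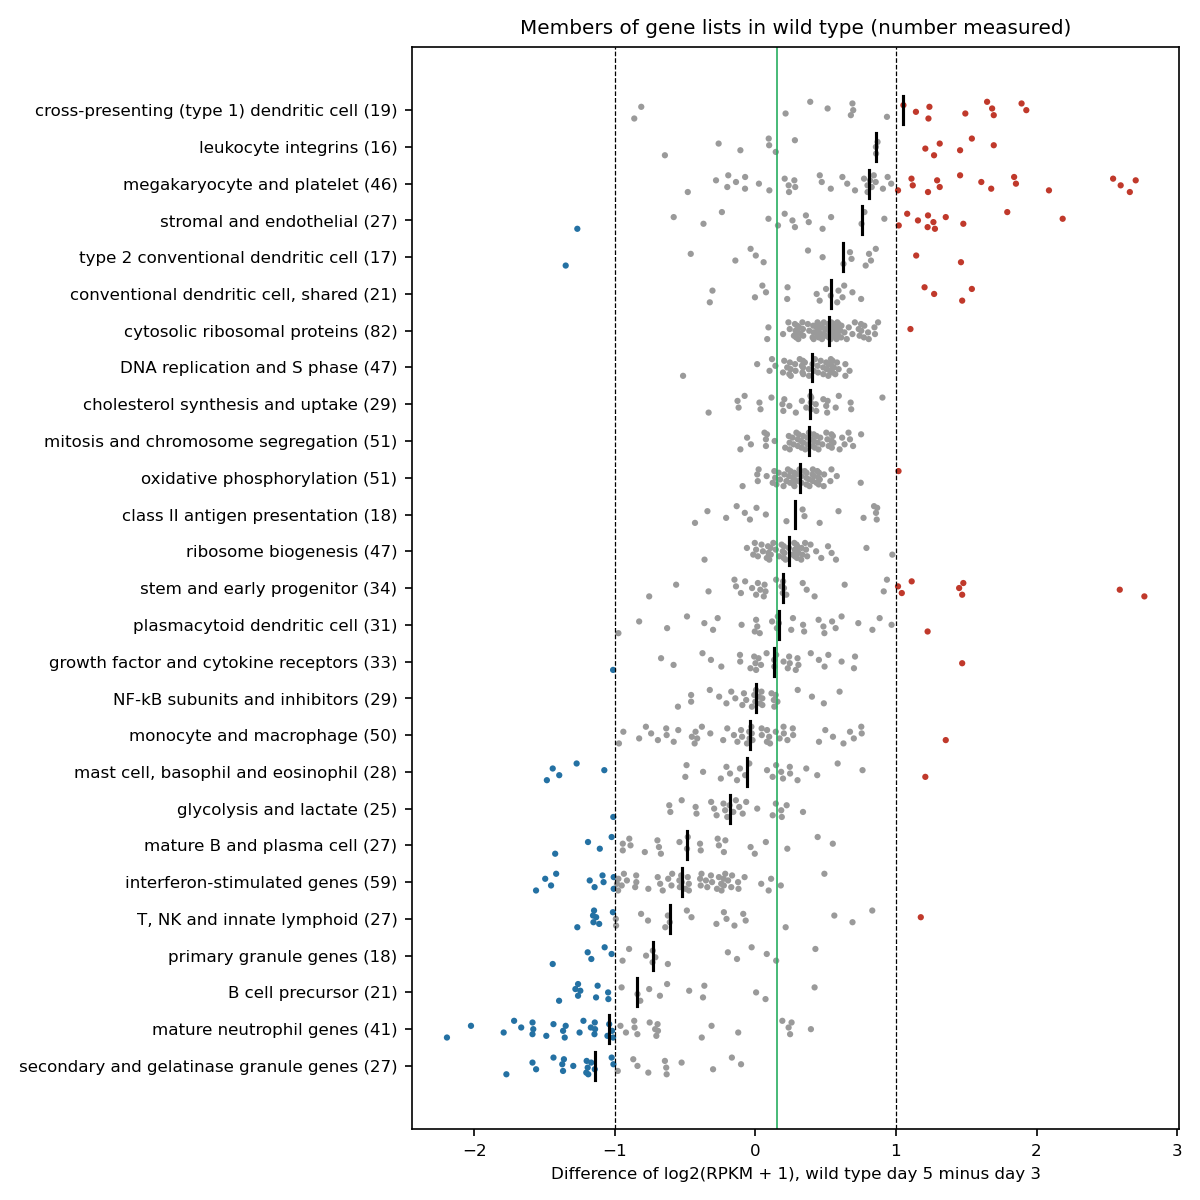
Difference of log2(RPKM + 1), day 5 minus day 3 in wild type (horizontal axis), for the measured members of 27 gene lists (rows, with the number measured), 1 point per gene; black bars are list medians, the green line the median of all compared genes (0.16), dashed lines the size rule. Of the lists shown, type 1 dendritic genes lie at the top with a median of 1.05 and granule genes at the bottom with -1.14. Ribosomal and cell cycle genes form narrow clouds mostly inside the rule. The list of stefin and cystatin inhibitors (-1.65) is not shown.

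Genes of DNA replication and mitosis lay mostly above the median of all genes. They stayed inside the rule, as did 11332 of the 11786 compared genes. Of 47 genes of DNA replication 42 had a difference above that median and 0 passed the rule (list median 0.41), and of 51 genes of mitosis 43 were above it and 0 passed (list median 0.38). Pcna stood at 84.3 and 123 RPKM (0.54) and Top2a at 95.6 and 131 RPKM (0.45), both named for their level. Ccnd1, which encodes cyclin D1, was the 1 of 23 cyclin, inhibitor and E2F genes past the rule (27.1 to 68.9 RPKM, 1.31). Myc stood at 21.4 and 24.8 RPKM (0.20), and its antagonist Mxd1 went from 73.2 to 34.5 RPKM (-1.06).

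Ribosomal protein genes were all above 0, 82 of 82, beside 8163 of 11786 over all genes, and 80 were above the median of all genes. Their median was 0.52. Their summed level went from 18742 to 26683 RPKM. They are short, with a median length of 725.5 bases, and over 5 equal bins of gene length the median difference ran from 0.19 to 0.10, lowest in the bin of the longest genes. Measured from the median of each gene's own length bin, the list stood at 0.35. Oxidative phosphorylation genes had a median of 0.31 (42 of 51 above the median of all genes), cholesterol synthesis and uptake 0.39 (22 of 29) and ribosome biogenesis 0.24 (31 of 47). Glycolysis genes had a median of -0.18, and the lactate exporter gene Slc16a3 was lower (19.6 to 9.23 RPKM, -1.01). The 15 long housekeeping transcripts had a median of -0.17 in wild type and 0.41 in the libraries labelled knockout.

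NF-kB genes had a median of 0.00, and 0 of 29 passed the rule in either direction. Over all genes 1.8% were higher and 2.05% lower. Of the 29, 5 lay above the median of all genes. Nfkb1, which encodes p105 and p50, had the largest difference, from 74.8 RPKM at day 3 to 114 at day 5 (0.60, ratio 1.52, 1.47 to 1.58). Rela, Relb and Rel differed by 0.00, 0.05 and 0.16, and the inhibitor gene Nfkbia by -0.26. Of 27 inflammatory mediators 6 were lower and 0 higher (median -0.49), led by the complement factor gene Cfb (20.6 to 3.71 RPKM, -2.20), Saa3 (33.5 to 12.7 RPKM, -1.33) and Alox5. Tnf stood at 17.8 and 9.76 RPKM (-0.80) and Il1b at 28.4 and 17.1 RPKM (-0.70). Of 31 survival and death genes Casp6 was higher (1.12), and Bcl2a1a (-1.25) and Fas (18.2 to 8.06 RPKM, -1.08) were lower.

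The libraries labelled Nfkb1 knockout share no library with the wild-type comparison, and their day 5 against day 3 values are set beside it without a test. Nfkb1 itself stood at 56.0 and 64.7 RPKM there, so its level summed over the gene does not check the label. By the size rule 70 genes were higher (0.594%) and 355 lower (3.01%). Of the genes higher in wild type, 18 were also higher in knockout, which is 8.5% of the wild-type and 25.7% of the knockout genes. Of those lower in wild type, 143 were also lower, 59.1% and 40.3%. Type 1 dendritic genes had a median of 1.05 in wild type and 0.07 in knockout, megakaryocyte and platelet genes 0.81 and -0.03, and mast cell, basophil and eosinophil genes -0.06 and -1.25. For the granule genes of neutrophils the values were -1.14 and -1.85, and for interferon-stimulated genes -0.52 and -0.37. Xcr1 went from 1.34 to 2.60 RPKM in knockout (0.62), Ppbp stood at 139 and 147 RPKM (0.08), and Ly6g went from 29.4 to 1.27 RPKM (-3.75).

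**Figure D5:**
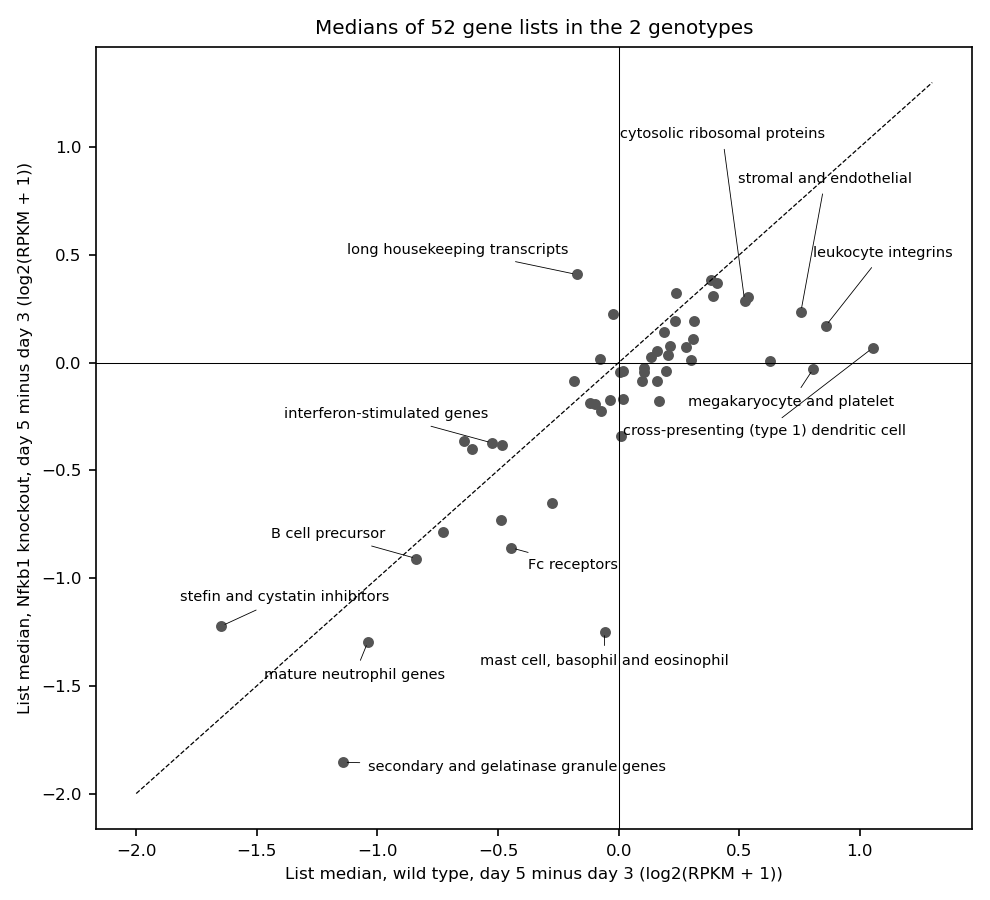
Median difference of log2(RPKM + 1), day 5 minus day 3, of each of 52 gene lists in wild type (horizontal axis) and in the libraries labelled Nfkb1 knockout (vertical axis), 1 point per list, with the dashed line at equality. Type 1 dendritic and megakaryocyte lists lie right of the line near a knockout median of 0, and mast cell, basophil and eosinophil genes below it at -1.25.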

How the data were processed

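Polyadenylated RNA of 4 libraries was measured, 1 per genotype and day. Per the file headers, the deposited values are RPKM computed by the authors, in 1 column per library. HISAT2, SAMtools and the mm9 build are named in the submitters' processing notes, without versions. For the counting tool, the annotation and strand, the entry is "not given in the sources used here", and overlapping genes cannot be told apart.

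Each value is an integer number of reads times a step set by gene length and library total. These steps gave back the totals, the reads and a length for each of 26026 genes (tolerance 0.003 reads, slightly more for genes of many reads). The smallest length giving whole reads in all libraries was taken. It was multiplied by up to 3 where that came within 5% of a reference transcript length. Reads are otherwise known only up to a whole multiple, so some read counts could be too low. No value was 0: either a gene without reads is listed at 1 read, or 1 read was added throughout, and then each read count given is 1 too high and ratios of genes with few reads are too near 1. The totals ran from 15255070 to 16215214 reads. Intervals are exact (Clopper-Pearson) 95% intervals of the ratio of reads, which were counted without molecular identifiers and are not independent molecules.

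Differences are of log2(RPKM + 1), with a pseudocount of 1, a mean of 1 RPKM over 4 libraries as the filter and a size rule of 1. With 1 library per group no test was possible. Genes were named from Flt3 and Nfkb1 and the 20 largest rises and drops with at least 20 reads on average. Up to 8 members of each of 52 lists and the 15 most abundant genes of each library were also eligible. Further members were named for level or role, and not every eligible gene is named. The ranking omitted unnamed, small RNA, receptor segment and sex-linked genes. The members, lists and promoter letters were chosen with earlier results of these data known. Promoters come from RefSeq (GRCm38.p6), matched by symbol for 9051 of 11786 genes. The alternatives were pseudocounts of 0.1 and 5, dropping the filter or raising it to 5 RPKM, scaling the libraries by their median ratio or to an equal sum, and a minimum of 20 reads. The procedures were tested on simulated data. Some items are not reported here.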

Additional observations from a re-analysis of the deposited data

Results flagged for a closer look

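The ubiquitin pseudogene Ubb-ps moved in opposite directions in the genotypes. In wild type it stood at 157 RPKM at day 3 and 0.971 at day 5, on 1685 and 11 reads, a difference of -6.326. In the libraries labelled knockout it had 9 and 48 reads, a difference of 1.60. The difference between the genotypes was not tested. Its parent gene Ubb, a near-identical copy with which reads can be shared, stood at 169 and 232 RPKM in wild type.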

How the results depend on the processing

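No paired analysis was possible because each group is 1 library. The counts of higher and lower genes were 418 and 386 with a pseudocount of 0.1 RPKM, 58 and 78 with 5 RPKM, 106 and 154 at a mean of at least 5 RPKM, and 134 and 339 after rescaling by the median ratio. That rescaling turned these list medians below 0: dendritic transcription factors -0.0357, class I -0.173, growth factor receptors -0.0403, Toll-like receptors -0.159, erythroid -0.0492, redox -0.0190, iron -0.0788, lysosomal -0.0814, NF-kB -0.160 and Bcl2 family -0.00971. Rescaling to the same sum gave class I -0.0251, Toll-like receptors -0.0154 and NF-kB -0.0274. Erythroid genes had -0.00761 without a filter and -0.113 at 5 RPKM, and iron genes -0.0409 at 5 RPKM. A pseudocount of 5 RPKM brought the medians of integrins to 0.57, stefins to -0.66, B cell precursor genes to -0.59, T, NK and innate lymphoid genes to -0.29 and matrix and vessel genes to 0.41. At a mean of at least 5 RPKM they were 0.57 for integrins, -0.12 for stefins and -0.15 for T, NK and innate lymphoid genes. Without a filter they were -0.18 for stefins and 0.37 for matrix and vessel genes, and stefins had -2.11 with a pseudocount of 0.1 RPKM and -0.92 at 20 reads. The causes were not tested. The ranked genes, the most abundant genes and the lists together held 176 genes past the rule, not all of them named here. Of these, 79 were under it with a pseudocount of 5 RPKM, 19 after the median ratio and 3 after the same sum. At a mean of at least 5 RPKM, 41 of them were left out. Depth limits genes of few reads, and the lack of replicates limits every comparison.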

Other observations

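The replication-dependent histone genes H2ac11 and H2ac12 gave the largest rises of all ranked genes. H2ac11 had 1 read at day 3 and 67 at day 5 in wild type (0.139 and 8.81 RPKM), and H2ac12 had 2 and 65 reads (0.251 and 7.73 RPKM). In the libraries labelled knockout H2ac11 had 6 and 3 reads and H2ac12 had 1 and 6. H1f2, chosen after its values were seen, had 171 and 395 reads in wild type (15.5 and 33.8 RPKM, difference 1.08). Most such transcripts lack a poly(A) tail, and these libraries were made from polyadenylated RNA.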
